A study of Mus musculus with 48 samples.

Results

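Chemokines and chemokine receptors were followed in mouse renal cortex after ischemia/reperfusion injury (IRI). Membership rests on the gene name alone: every gene symbol of the deposited table that begins with Ccl, Cxcl, Cx3cl or Xcl, or with Ccr, Cxcr, Cx3cr, Xcr or Ackr, followed by a number. It holds 43 genes of 14320 measured features, 34 of them ligands and 9 receptors, read from 72 transcripts. Another 22 symbols of the same name pattern in the GENCODE M21 annotation had no value in the table, among them the receptors Ccr3, Ccr4, Ccr6, Ccr7, Cxcr1 and Cxcr5 and the ligands Ccl24 and Cxcl11, and were not analysed here.

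Chemokines are small secreted proteins that bind heparan sulfate on cell surfaces and draw leukocytes along their gradient by way of G protein-coupled receptors that signal through Gi proteins. Inflammatory chemokines are made on demand by injured epithelium, endothelium and macrophages, many of them under the transcription factor NF-kB, whereas homeostatic chemokines such as Cxcl12, Ccl19 and Ccl21 are made without injury and place cells within tissues. In the ischemic kidney, ligands of Cxcr2 are known to draw neutrophils in the first hours to days and ligands of Ccr2 to draw monocytes.

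The study compared mild acute kidney injury, from which the tubules recover, with severe injury followed by fibrosis. Renal cortex of 24 male C57BL/6 mice was sequenced as 48 libraries. In each mouse the left renal pedicle was clamped for 20 minutes (mild) or 40 minutes (severe), and the right kidney of the same mouse served as the self-control. Cortex was labelled as sampled on day 1 or day 3, which gave 8 groups of 6 kidneys: 20-minute IRI on day 1, 20-minute IRI on day 3, 40-minute IRI on day 1, 40-minute IRI on day 3, and the right kidneys of each of these 4 groups of mice. All mice were young adult wild-type males, and each group holds 6 separate animals. The methods of the study describe removal of the right kidney before the left was clamped, whereas the labels give each right kidney the day of its left kidney, so that the time between the samples of a pair cannot be read with certainty from the sources used here. If the right kidneys were removed at surgery, the left kidney was also the only kidney left, and clamping, loss of the other kidney and time since surgery cannot be told apart.

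The values are FPKM, the number of sequenced fragments of a transcript scaled to its length and to the depth of the library. FPKM allows levels of different genes to be set side by side, since it is per length. A level is given here as the lowest, the median and the highest FPKM of the 6 kidneys of a group. A difference is the log2 difference of group means of log2(FPKM + 0.01) with its standard error, fitted with limma over all genes, and a gene was called where its adjusted p was under 0.05 and its fitted fold reached 2. For genes near 0 FPKM the fitted fold depends on the 0.01 added, so their levels say more than their fold. Read counts were not used here. From the spacing of low values a depth of about 9350000 to 16050000 read pairs per library was estimated, roughly, because only 22.4% to 55.1% of these values lay within 0.1 of a whole number of read pairs. At the median of these depths 1 read pair is worth 0.0992 FPKM in Ccl7, 0.105 FPKM in Cxcl17 and 0.0280 FPKM in Ccr1. A value of 0 is therefore reported as listed at 0, not as absence. No gene whose mean reached 50 FPKM was listed at 0 in any library, and 22 of the 8058 genes whose mean reached 5 FPKM were.

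After 40 minutes of ischemia more of the chemokine genes rose than fell on both days, and after 20 minutes few of them passed the test. After 40 minutes and 1 day, 15 of 43 genes rose and 4 fell, where 15.7% of all 14276 genes tested rose and 7.39% fell. After 40 minutes and 3 days, 19 rose and 1 fell, against 15.3% and 5.98% of all genes. The members called higher were thus 34.9% and 44.2% of the 43. After 20 minutes, only Ccr1 rose on day 1 (1.19% of all genes rose) and none fell (0.442%), with 1 gene lower at an unadjusted p under 0.05. On day 3 after 20 minutes Ccl9, Cxcl17 and Cxcr4 rose (2.34% of all genes rose) and Ccl19 fell (1.73% fell). In either direction, 1, 4, 19 and 20 of the 43 genes were thus called for 20 minutes on days 1 and 3 and 40 minutes on days 1 and 3, against 1.64%, 4.07%, 23.1% and 21.3% of all genes. The median log2 difference of the 43 genes was 0.73, 0.04, 0.50 and 1.12 for 20 minutes on days 1 and 3 and 40 minutes on days 1 and 3, beside 0.10, 0.02, 0.24 and 0.16 over all genes.

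Of the 43 genes, 25 were called in at least 1 of these 4 comparisons, and 14 of them rose after 40 minutes on both days, among them the ligands Ccl2, Ccl6, Ccl7, Ccl9, Ccl17, Cxcl1, Cxcl5, Cxcl13, Cxcl14 and Cxcl17 and the receptors Ccr1, Ccr2 and Cxcr2. Only Ccl9, Ccr1 and Cxcl17 rose in 3 of the 4 comparisons, and no gene rose in all 4. After 40 minutes the 6 IRI kidneys lay above all 6 control kidneys for 8 genes on day 1 (24.6% of all genes) and for 15 genes on day 3 (25.7% of all genes). They lay below all controls for Ccl19 and Cxcl9 on day 1 (11.1%) and for Ccl19 on day 3 (12.6%). After 20 minutes on day 1 the groups overlapped for all 43 genes, whereas 3.2% of all genes lay above and 2.01% below all controls. In cortex RNA, more cells of a type and more RNA per cell cannot be told apart in any of these differences. Dividing each library by its median level lowered the median difference of all genes by 0.22 on day 1 and by 0.16 on day 3 after 40 minutes, and it moved the share of higher calls among all called genes from 68.0% to 54.6% on day 1. Of the 43 genes 14 then rose and 6 fell on day 1, and 18 rose and 1 fell on day 3.

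**Figure D1:**
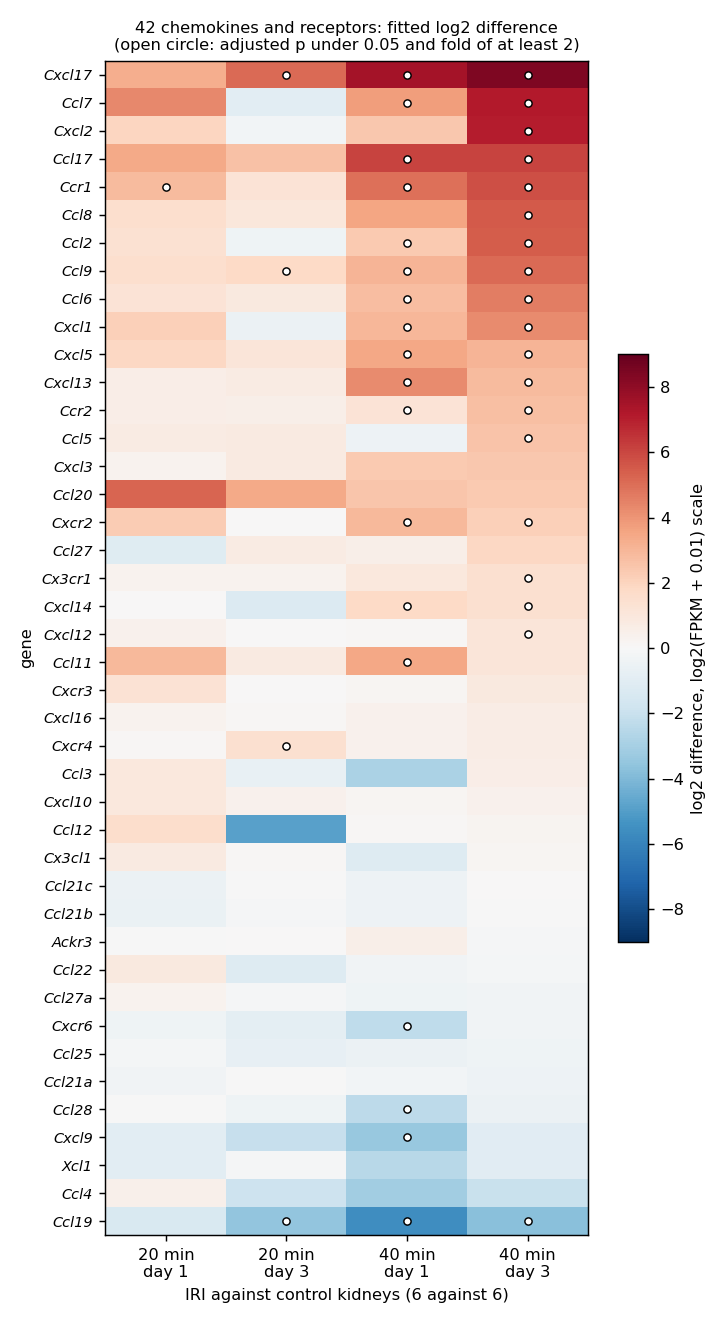
Fitted log2 differences of 42 of the genes (rows, sorted by the value for 40 minutes on day 3) between 6 IRI and 6 control kidneys, in columns for 20 minutes on days 1 and 3 and 40 minutes on days 1 and 3. Red is higher and blue is lower in IRI, and an open circle marks a gene called by adjusted p (under 0.05) and by fold (2 or more). The circles number 1, 4, 18 and 19 from left to right. Values of genes listed at 0 in all 6 controls, such as Cxcl17 and Cxcl5, depend on the 0.01 added.

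The neutrophil-attracting CXC ligands Cxcl1, Cxcl2, Cxcl3 and Cxcl5, which bind Cxcr2, lie together on chromosome 5 with the interferon-induced Cxcl9 and Cxcl10 some distance away. Promoters of Cxcl1, Cxcl2, Cxcl3 and Cxcl10 are shown because Cxcl1 and Cxcl2 both rose on day 3 after 40 minutes whereas Cxcl3 and Cxcl10 were not called. RefSeq gave promoters of 250 bases before to 50 bases after the start (build GRCm38.p6) for 32 of the 43 genes, with more than 1 for some, 35 in all. The other genes, among them Ccl2, Ccl5, Ccl7, Cxcl5 and Cxcl17, had no promoter there and were not searched. The NF-kB pattern (GGG, any 3 bases, then TTCC), read on both strands, was found in 6 of the 35 promoters (those of Ccl9, Ccl20, Cxcl1, Cxcl2, Cxcl3 and Cxcl10) and in 5.56% of all 32851 promoters. The exact letters GGGAATTTCC were picked after the search as the match shared by the most members, so their count is no test. Read on the strand of the gene alone, they stood in Cxcl1, Cxcl2 and Cxcl3 and in 17 of all promoters. Their first base lay at -71, -97 and -73 from the start. The last 180 bases before the start follow, 5′ to 3′ on the strand of the gene, with matches to the NF-kB pattern on either strand in capitals. Overlapping matches on the 2 strands make some runs longer than the pattern.
Cxcl1 (chr5:90891065-90891244, plus strand): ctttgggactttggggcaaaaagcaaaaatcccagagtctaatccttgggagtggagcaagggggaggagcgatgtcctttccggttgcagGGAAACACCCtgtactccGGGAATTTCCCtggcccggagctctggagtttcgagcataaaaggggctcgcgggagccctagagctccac
Cxcl2 (chr5:90903719-90903898, plus strand): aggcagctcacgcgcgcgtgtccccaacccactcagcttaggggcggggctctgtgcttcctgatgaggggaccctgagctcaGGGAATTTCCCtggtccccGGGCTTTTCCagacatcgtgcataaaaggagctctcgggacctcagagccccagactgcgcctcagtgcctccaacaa
Cxcl3 (chr5:90785921-90786100, plus strand): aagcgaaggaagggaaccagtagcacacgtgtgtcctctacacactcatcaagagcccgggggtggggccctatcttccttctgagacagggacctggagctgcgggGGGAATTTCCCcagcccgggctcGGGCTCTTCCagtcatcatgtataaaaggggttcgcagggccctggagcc
Cxcl10 (chr5:92348890-92349069, minus strand): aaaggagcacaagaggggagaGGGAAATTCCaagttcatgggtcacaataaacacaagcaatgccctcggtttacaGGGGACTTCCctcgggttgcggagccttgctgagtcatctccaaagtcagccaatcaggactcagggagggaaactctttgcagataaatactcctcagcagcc

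A match is a string of letters and says nothing of binding in these kidneys. Cxcl10 also held the AP-1 pattern TGANTCA at -74, which 7.81% of all promoters hold, and the interferon response pattern (GAAA, any 2 bases, then GAAA) at -213, outside the bases shown, which 3.44% hold. The same interferon response pattern was found in Ccl19 and Cxcl14, and the AP-1 pattern in Ccl9, Ccl27a, Ccl28 and Cxcl9. Ccl9 and Ccl20 held the NF-kB pattern on the opposite strand, at -35 and -80.

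Cxcl1 was the neutrophil chemokine with the highest level. Its controls of the 40-minute mice held 0.445, 1.59 and 3.56 FPKM (lowest, median, highest) on day 1 and 0.503, 0.685 and 1.68 FPKM on day 3. The IRI kidneys held 8.05, 11.5 and 16.6 FPKM on day 1 and 8.82, 14.6 and 26 FPKM on day 3. The groups did not overlap on either day. The log2 difference was 2.99 ± 0.42 on day 1 (adjusted p = 5.02e-05) and 4.24 ± 0.29 on day 3 (adjusted p = 1.07e-07). After 20 minutes the Cxcl1 level ran from 0.522 to 26.6 FPKM on day 1 (median 4.01) and from 0.457 to 38.4 FPKM on day 3 (median 0.744). These ranges overlapped the controls, and on day 3 a single kidney, replicate 4, lay far above the other 5, which reached 1.56 FPKM. The differences after 20 minutes were 2.15 ± 0.92 on day 1 (adjusted p = 0.16) and -0.52 ± 1.09 on day 3 (adjusted p = 0.79).

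Cxcl2 rose on day 3 after 40 minutes, from 0, 0 and 0.125 FPKM with 4 of 6 controls listed at 0, to 1.64, 2.94 and 4.90 FPKM, without overlap (log2 difference 7.06 ± 0.71, adjusted p = 2.64e-06). On day 1 the IRI kidneys held a similar 1.73, 2.38 and 3.85 FPKM, but the controls reached 3.26 FPKM (median 0.828), and the difference of 2.44 ± 1.00 missed the threshold (adjusted p = 0.0505). Cxcl5 was listed at 0 in all 24 control kidneys and reached 0.720 FPKM on day 1 and 0.913 FPKM on day 3 after 40 minutes, with 4 of 6 IRI kidneys above 0 on each day (adjusted p = 0.0186 and 0.0414). With the mouse as a block the day 3 value was adjusted p = 0.0557, and leaving out any of mice 3, 4, 5 or 6 on day 1, or of mice 2, 3, 5 or 6 on day 3, raised the adjusted p to between 0.0519 and 0.131. Cxcl3 stayed under 1 FPKM in all 48 libraries and was not called against control (adjusted p = 0.15 and 0.084 on days 1 and 3 after 40 minutes).

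Cxcr2, the neutrophil receptor for these ligands, rose from 0.0330, 0.107 and 0.379 FPKM to 0.356, 1.09 and 1.64 FPKM on day 1 after 40 minutes (log2 difference 2.90 ± 0.51, adjusted p = 0.000318). On day 3 it stood at 0.175, 0.262 and 0.441 FPKM, above all controls (0, 0.0721 and 0.135 FPKM; 2.17 ± 0.58, adjusted p = 0.00641). Cxcr2 was thus lower on day 3 than on day 1 among 40-minute IRI kidneys, by 1.78 ± 0.37 on the log2 scale (adjusted p = 0.00932), whereas Cxcl1 was not (0.37 ± 0.24, adjusted p = 0.28). Neutrophil markers moved in the same direction. The summed level of the 8 of 13 listed neutrophil genes with a value, such as S100a8 and S100a9, had a median of 7.49 FPKM in controls and 41.1 FPKM in IRI kidneys on day 1 after 40 minutes (ranges 2.97 to 15.2 and 19.7 to 56.1), and 5.29 and 11.8 FPKM on day 3 (2.14 to 12.1 and 9.02 to 17.3). All 8 rose on day 1 (15.7% of all genes rose) and 7 of 8, all but S100a9, on day 3 (15.3%). Their part in the Cxcr2 difference was not tested.

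**Figure D2:**
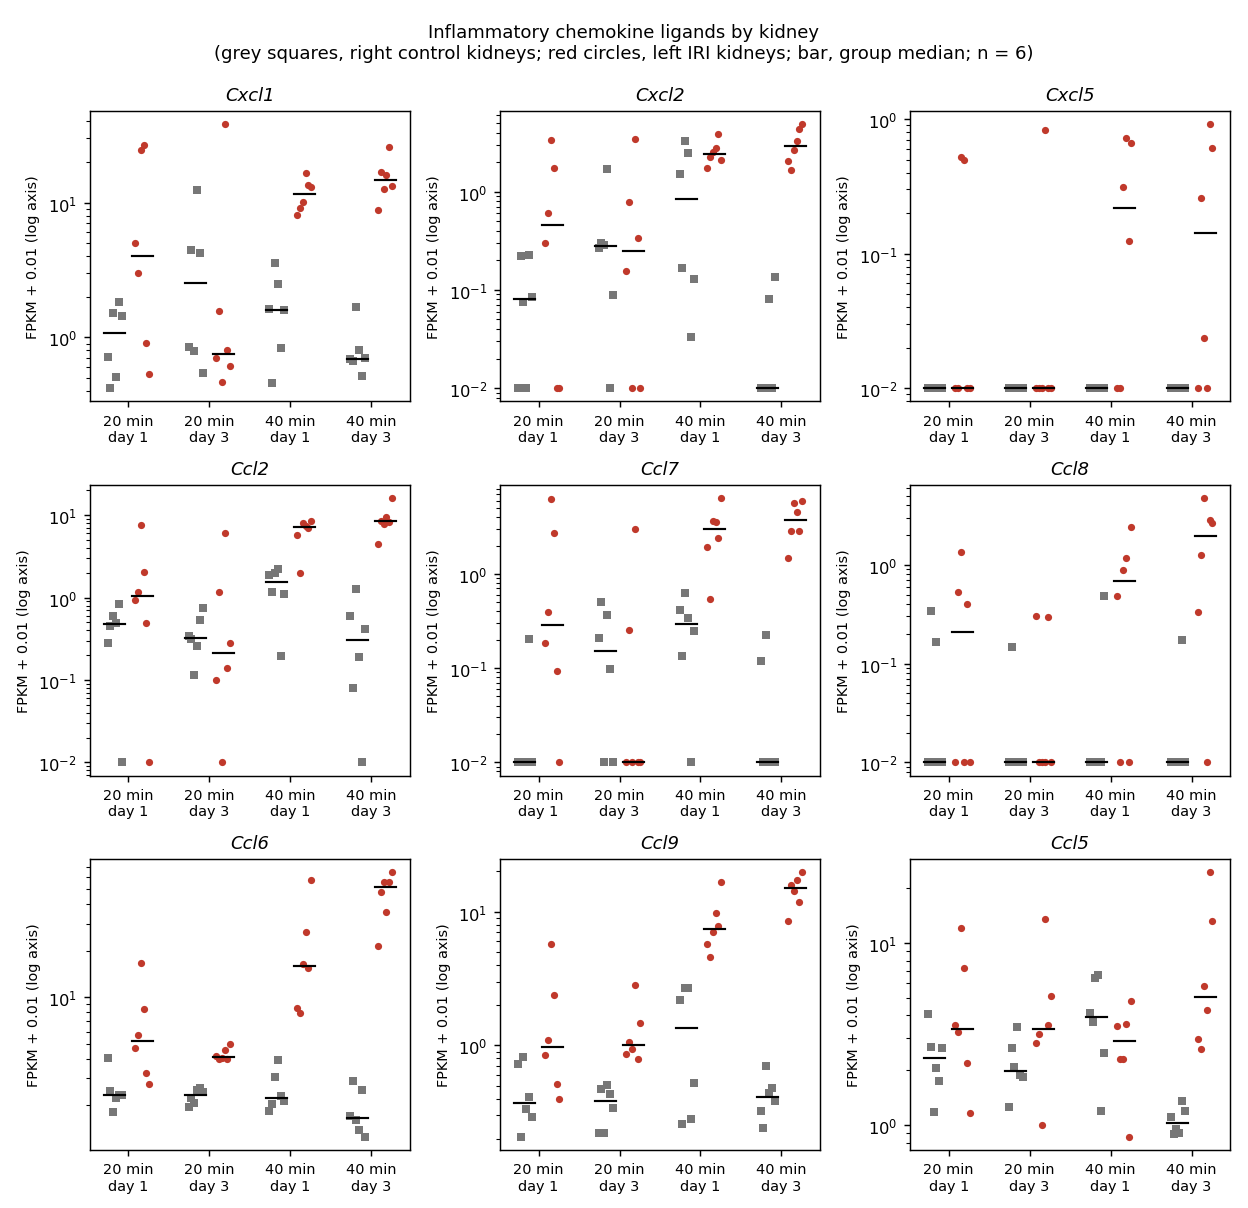
FPKM + 0.01 on a log axis of 9 inflammatory ligands in every kidney, by ischemia time and day. Grey squares are the 6 right control kidneys, red circles the 6 left IRI kidneys and bars the group medians. After 40 minutes on day 3 all 6 IRI kidneys lie above all controls for Cxcl1, Cxcl2, Ccl2, Ccl7, Ccl6, Ccl9 and Ccl5, whereas after 20 minutes 1 or 2 kidneys of a group reach these levels for several ligands.

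The monocyte-attracting CC ligands Ccl2, Ccl7 and Ccl8 lie close together on chromosome 11 (Ccl2 at chr11:82035571-82037453, GRCm38) and rose after 40 minutes, together with Ccr2, the receptor that carries inflammatory monocytes out of the marrow and into tissue. Ccl2 in the 40-minute controls held 0.185, 1.51 and 2.20 FPKM on day 1 and 0, 0.293 and 1.26 FPKM on day 3. In the IRI kidneys it held 1.99, 7.2 and 8.38 FPKM on day 1 and 4.44, 8.42 and 16.2 FPKM on day 3. The groups overlapped on day 1 through replicate 2, the lowest IRI kidney, and did not overlap on day 3. The log2 difference was 2.37 ± 0.56 (adjusted p = 0.00262) on day 1 and 5.48 ± 0.94 (adjusted p = 0.000262) on day 3. After 20 minutes Ccl2 reached 7.52 FPKM in replicate 3 on day 1 and 6.07 FPKM in replicate 4 on day 3, with medians of 1.04 and 0.201 FPKM, and was not called (adjusted p = 0.60 and 0.88).

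Ccl7 stood at 0.533, 2.96 and 6.38 FPKM on day 1 and 1.47, 3.70 and 5.99 FPKM on day 3 after 40 minutes. Its controls reached at most 0.618 and 0.213 FPKM, and 4 of 6 were listed at 0 on day 3. The log2 differences were 3.79 ± 0.90 (adjusted p = 0.00290) and 7.11 ± 0.83 (adjusted p = 1.06e-05). Ccl8 was called on day 3 only, with 0, 1.95 and 4.74 FPKM in IRI kidneys and 5 of 6 controls listed at 0 (5.50 ± 1.38, adjusted p = 0.00412). On day 1 it held 0, 0.671 and 2.42 FPKM (adjusted p = 0.068, and 0.0286 with the mouse as a block). Ccl12, a mouse ligand of Ccr2, was called in no comparison. Its levels were erratic: 4 of the 6 20-minute IRI kidneys of day 3 were listed at 0 and another held 17.7 FPKM, while all 24 control kidneys were above 0. The Ccl12 difference of that group was -4.90 ± 1.68 (adjusted p = 0.063, and 0.0220 with the mouse as a block).

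Ccr2 rose from 0.758, 1.16 and 1.73 FPKM to 0.888, 2.43 and 8.02 FPKM on day 1 and from 0.539, 0.745 and 1.33 FPKM to 1.81, 6.05 and 14.8 FPKM on day 3 after 40 minutes. Only the day 3 groups were apart. The log2 differences were 1.22 ± 0.41 (adjusted p = 0.0227) and 2.67 ± 0.44 (adjusted p = 0.000174). The day 1 call did not hold without mouse 3 (adjusted p = 0.0581), 4 (0.0855) or 5 (0.0580), or without mouse 6, which held the highest Ccr2 level (0.93, under a fold of 2). Scaling the libraries to an equal median took it to 1.00 (adjusted p = 0.0571). Most monocyte and macrophage markers rose with it: the summed level of 14 genes such as Adgre1 and C1qa had a median of 80.6 FPKM in controls and 184 FPKM in IRI kidneys on day 1 (49.5 to 106 and 113 to 654), and 51.5 and 558 FPKM on day 3 (37.4 to 60.8 and 289 to 716). Of the 14 genes 10 rose on day 1 (15.7% of all genes rose) and 12 on day 3 (15.3%), and none fell (7.39% and 5.98%). Csf1r and Ly6c2 were called on neither day. The part of these markers in the differences of the chemokines was not tested.

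Ccl6 and Ccl9, ligands of Ccr1 made by myeloid cells of the mouse that lie side by side on chromosome 11 (Ccl9 at chr11:83572919-83578636), separated the groups on both days after 40 minutes. Ccl6 held 1.83, 2.20 and 3.94 FPKM in controls and 7.91, 15.9 and 57.3 FPKM in IRI kidneys on day 1 after 40 minutes, and 1.24, 1.64 and 2.86 FPKM against 21.6, 52.2 and 64.8 FPKM on day 3. The log2 difference was 2.81 ± 0.42 (adjusted p = 8.17e-05) on day 1 and 4.62 ± 0.28 (adjusted p = 3.53e-08) on day 3. The IRI kidneys also lay above all controls on day 3 after 20 minutes (3.99, 4.10 and 4.97 against 1.94, 2.31 and 2.57 FPKM). That difference of 0.91 ± 0.11 passed the adjusted p (0.000189) but not the fold of 2. In that comparison the groups did not overlap with IRI higher for Ccl6, Ccl9 and Cxcr4 (4.86% of all genes), and with IRI lower for Ccl25 alone (5.43%).

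Ccl9 held 0.249, 1.34 and 2.69 FPKM in controls and 4.58, 7.41 and 16.6 FPKM in IRI kidneys on day 1 after 40 minutes, and 0.231, 0.402 and 0.689 against 8.49, 15 and 19.7 FPKM on day 3. The log2 differences were 3.09 ± 0.64 (adjusted p = 0.00104) and 5.12 ± 0.26 (adjusted p = 8.56e-09). After 20 minutes it was called on day 3, at 0.787, 0.992 and 2.83 FPKM against 0.210, 0.376 and 0.499 FPKM (1.79 ± 0.35, adjusted p = 0.00392). On day 1 after 20 minutes it held 0.388, 0.961 and 5.69 FPKM and overlapped the controls (1.51 ± 0.61, adjusted p = 0.14).

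Ccr1 (chr9:123962124-123968692), a receptor of neutrophils, monocytes and macrophages, rose on both days after 40 minutes, as did its ligands Ccl6, Ccl7 and Ccl9. Its ligand Ccl5 rose on day 3 only. In the controls of the 40-minute mice Ccr1 held 0.0675, 0.0824 and 0.273 FPKM on day 1 and 0.0259, 0.103 and 0.30 FPKM on day 3. The IRI kidneys held 2.51, 3.34 and 7.90 FPKM and 4.08, 6.96 and 7.87 FPKM. The groups were far apart on both days, with log2 differences of 4.98 ± 0.42 (adjusted p = 6.20e-07) and 5.79 ± 0.45 (adjusted p = 3.13e-07). Ccr1 was also the only one of the 43 genes called on day 1 after 20 minutes, at 0.0744, 0.559 and 1.81 FPKM against 0.0267, 0.0575 and 0.104 FPKM (2.84 ± 0.68, adjusted p = 0.0336), with 5 of 6 IRI kidneys above all controls. This call was lost with the mouse as a block (adjusted p = 0.0691) and without mouse 1, 2, 3 or 4 (adjusted p between 0.0979 and 0.132).

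Ccl5, a ligand of Ccr1 made by T cells, platelets and injured epithelium, rose on day 3 after 40 minutes, from 0.883, 1.02 and 1.35 FPKM to 2.60, 5.03 and 24.5 FPKM, without overlap (2.58 ± 0.48, adjusted p = 0.000480). On day 1 it held 0.853, 2.89 and 4.79 FPKM against 1.18, 3.89 and 6.63 FPKM in controls (-0.47 ± 0.47, adjusted p = 0.42). The change against control differed between the days by 3.04 ± 0.70 (adjusted p = 0.0108). Part of this difference lay in the controls, whose median was 3.89 FPKM on day 1 and 1.02 FPKM on day 3.

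Ccl3 and Ccl4, made by activated macrophages and lymphocytes, were not called in any of the 14 comparisons. On day 1 after 40 minutes their median levels were 0.395 and 0.339 FPKM in IRI kidneys against 2.32 and 2.11 FPKM in controls, and the controls reached 6.35 and 6.32 FPKM, both in replicate 3. The Ccl4 differences were -3.14 ± 1.36 on day 1 (adjusted p = 0.063) and -1.98 ± 1.02 on day 3 (adjusted p = 0.11), and with the mouse as a block both passed (adjusted p = 0.00336 and 0.0374). Ccl3 had differences of -2.83 ± 1.17 (adjusted p = 0.052) and 0.62 ± 0.49 (adjusted p = 0.30).

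**Figure D3:**
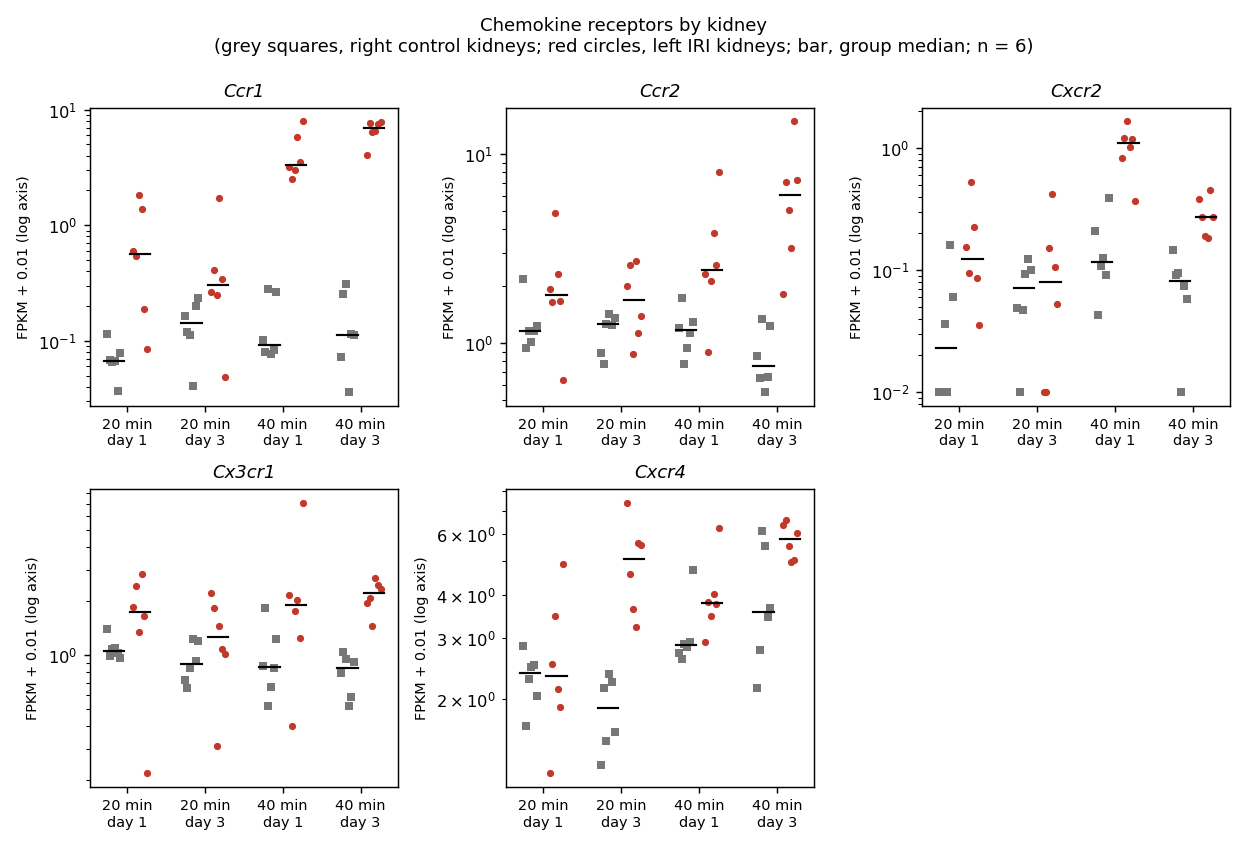
FPKM + 0.01 on a log axis of 5 receptors in every kidney, by ischemia time and day. Grey squares are right control kidneys, red circles left IRI kidneys and bars group medians (n = 6). Ccr1 shows the widest gap after 40 minutes on both days, Cxcr2 is higher on day 1 than on day 3, and Cxcr4 is apart from its controls on day 3 after 20 minutes.

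Among ligands made by epithelia and stroma, Cxcl17 (chr7:25400053-25412886), a chemoattractant of mucosal epithelia, was at or near a listing of 0 in the controls. It was listed at 0 in 23 of 24 control kidneys, and the other, a 20-minute control of day 1, held 0.208 FPKM. After 40 minutes it held 1.07, 1.70 and 3.73 FPKM on day 1 and 1.98, 3.45 and 4.88 FPKM on day 3, above all controls (adjusted p = 6.75e-09 and 2.54e-10). These p-values depend on the 0.01 added, because all controls of the 40-minute mice were listed at 0. An exact permutation test gave p = 0.00216 on each day. After 20 minutes Cxcl17 held 0, 0.324 and 2.13 FPKM on day 1 (adjusted p = 0.17) and 0, 0.564 and 2.49 FPKM on day 3, where 5 of 6 IRI kidneys were above 0 (adjusted p = 0.00552). Marker genes of urothelium had summed levels of 0.596 to 5.0 FPKM in the IRI kidneys of day 1 after 40 minutes (median 0.954, controls 0.548) and 0.734 to 7.30 FPKM on day 3 (median 3.33, controls 1.24). Of the 4 genes 0 and 1 were called higher, where 15.7% and 15.3% of all genes were. The part of the urothelium markers in the Cxcl17 difference was not tested.

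Cxcl13, which draws B cells through Cxcr5, rose from 0, 0.191 and 0.255 FPKM to 0.831, 2.31 and 5.12 FPKM on day 1 after 40 minutes, without overlap (4.25 ± 0.78, adjusted p = 0.000432). On day 3 it held 0.354, 0.933 and 1.21 FPKM against 0, 0.112 and 0.473 FPKM (2.84 ± 0.80, adjusted p = 0.00815), lower than on day 1 by 1.54 ± 0.49 on the log2 scale (adjusted p = 0.0392). Of the B cell markers listed, 2 of 4 had a value, and their summed median was 0.645 FPKM in controls and 0.545 FPKM in IRI kidneys on day 1. Ccl17, a dendritic cell product that binds Ccr4, rose from a median of 0 FPKM to 0.613, 1.11 and 2.74 FPKM on day 1 and 1.2, 2.60 and 3.37 FPKM on day 3 after 40 minutes (6.10 ± 0.81, adjusted p = 3.29e-05, and 6.05 ± 1.05, adjusted p = 0.000300). Its controls were listed at 0 in 5 of 6 and 4 of 6 kidneys and reached 0.292 and 0.420 FPKM, below all IRI kidneys. Ccl22, the other ligand of Ccr4, stayed under 1 FPKM throughout and was not called. The dendritic cell markers had medians of 3.91 and 3.99 FPKM (control, IRI) on day 1 and 3.13 and 5.22 FPKM on day 3 after 40 minutes. Of the 6 with a value, Cd209a and Clec9a were called lower and none higher on day 1, where 7.39% of all genes fell and 15.7% rose. On day 3 Clec9a was called lower and Itgax higher, where 5.98% of all genes fell and 15.3% rose.

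Cxcl14, a ligand of skin and kidney epithelium, rose from 3.27, 4.79 and 7.90 FPKM to 8.77, 19 and 31.7 FPKM on day 1 after 40 minutes, without overlap (1.83 ± 0.28, adjusted p = 9.63e-05), and from 4.68, 5.82 and 7.87 FPKM to 7.50, 15.1 and 33.0 FPKM on day 3, with overlap (1.43 ± 0.30, adjusted p = 0.00122). A second transcript, ENSMUST00000224801, was above 5 FPKM in 7 IRI kidneys (2 of 6 after 20 minutes on day 1, and 3 of 6 and 2 of 6 after 40 minutes on days 1 and 3) and in no control. With only the highest transcript of each gene in place of the sum, neither call held (0.61, adjusted p = 0.37, and 0.51, adjusted p = 0.32). After 20 minutes Cxcl14 ran from 1.74 to 26.1 FPKM on day 1 and from 0.905 to 21.5 FPKM on day 3, with medians of 11.5 and 5.61 FPKM and no call (adjusted p = 0.99 and 0.18).

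Cxcl12, the stromal and endothelial ligand of Cxcr4 and of the scavenging receptor Ackr3, had control medians between 13.9 and 22.1 FPKM in the 4 groups. Its controls on day 3 held 12.8, 15.1 and 16.6 FPKM, and the 40-minute IRI kidneys 25.4, 28.3 and 70.0 FPKM, without overlap (1.12 ± 0.21, adjusted p = 0.000614). The 70.0 FPKM of replicate 1 held 35.6 FPKM of a short transcript, ENSMUST00000112866, whose median in the group was 0.155 FPKM, and without mouse 1 the difference was 0.91 (adjusted p = 1.25e-05), under a fold of 2. It was 0.96 with the libraries scaled to an equal median. On day 1 after 40 minutes Cxcl12 held 9.78, 16 and 31.1 FPKM against 14.6, 15.8 and 20.1 FPKM (0.07 ± 0.25, adjusted p = 0.83), and the change differed between the days by 1.05 ± 0.35 (adjusted p = 0.0474, and up to 0.103 with a mouse left out).

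Cxcr4, the receptor of Cxcl12, rose after mild injury on day 3. On day 3 after 20 minutes it held 3.22, 5.08 and 7.39 FPKM against 1.27, 1.87 and 2.34 FPKM, without overlap (1.42 ± 0.22, adjusted p = 0.00109). After 40 minutes on day 3 its IRI level was close, at 4.98, 5.79 and 6.58 FPKM, but its controls were at 2.14, 3.55 and 6.10 FPKM, and the difference of 0.63 ± 0.23 (adjusted p = 0.029) stayed under a fold of 2. The change against control was not shown to differ between 40 and 20 minutes (-0.78 ± 0.33, adjusted p = 0.076). Ackr3 held between 8.50 and 23.5 FPKM in all 48 libraries and was not called. Its largest difference against control was 0.51 ± 0.17 on day 1 after 40 minutes (adjusted p = 0.021).

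Cx3cr1, the receptor of resident and patrolling macrophages for Cx3cl1, rose on day 3 after 40 minutes from 0.509, 0.842 and 1.03 FPKM to 1.45, 2.20 and 2.69 FPKM, without overlap (1.45 ± 0.21, adjusted p = 6.85e-05). On day 1 it held 0.393, 1.89 and 7.11 FPKM, the highest in replicate 6 (0.93 ± 0.55, adjusted p = 0.16). Its annotated span overlaps 9 other genes, among them Wdr48 and Ttc21a, and the strand setting of the authors' counting is not given in the sources used here. Spans of Ccl2, Ccl6, Ccl19, Ccl21a, Ccl25, Ccl27a, Cxcl10, Cxcl16, Cxcl17, Cxcr6 and Xcl1 each overlap 1 other gene as well. Cx3cl1, a membrane-bound ligand of endothelium and tubules, was not called. On day 1 after 40 minutes its IRI level was 3.57, 6.75 and 32.7 FPKM against 17.4, 18.8 and 28.1 FPKM (-1.19 ± 0.50, adjusted p = 0.056). Low Cx3cl1 levels went along with 1 transcript: in the 11 libraries with a short transcript, ENSMUST00000211947, above 0 the median was 3.82 FPKM and 9 were under 8 FPKM, whereas in the other 37 the median was 20.7 FPKM and 1 was under 8 FPKM. The 11 were 4 of 6 IRI kidneys on each day after 40 minutes, 1 IRI kidney of day 1 after 20 minutes and 2 40-minute controls of day 3. Injury and the assignment of reads among transcripts therefore cannot be told apart. Cxcl16, the other transmembrane ligand, rose by less than the fold of 2 after 40 minutes (0.41 ± 0.14 and 0.70 ± 0.11, adjusted p = 0.026 and 0.000166), from a median of 12.6 to 16.8 FPKM on day 1 and of 13.5 to 21 FPKM on day 3, and on day 3 without overlap. Its receptor Cxcr6, of T and NKT cells, fell on day 1 after 40 minutes from 0.13, 0.321 and 0.798 FPKM to 0, 0.0545 and 0.720 FPKM (-2.28 ± 0.84, adjusted p = 0.0322), with overlap, and this call was lost without mouse 1, 2, 4 or 5 (adjusted p between 0.0619 and 0.113).

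Ccl19 (chr4:42754525-42756577), a ligand of Ccr7 that stromal cells make to hold T cells and dendritic cells, was the gene that fell in 3 of 4 comparisons. On day 1 after 40 minutes it held 0, 0.0145 and 0.109 FPKM against 0.723, 0.908 and 2.75 FPKM, and on day 3 0, 0.114 and 0.555 FPKM against 0.647, 1.03 and 1.44 FPKM. The IRI kidneys were below all controls on both days (-5.56 ± 0.66, adjusted p = 1.17e-05, and -3.79 ± 0.99, adjusted p = 0.00534). After 20 minutes on day 3 it held 0, 0.0198 and 0.560 FPKM against 0.166, 0.627 and 1.01 FPKM, with overlap (-3.57 ± 1.07, adjusted p = 0.0376), and this call was lost without mouse 2, 3, 5 or 6 (adjusted p between 0.0716 and 0.140) and with the highest transcript in place of the sum (0.138). Ccl19 was read from 2 gene identifiers, 1 of them on an unplaced scaffold. The near-identical Ccl21a, Ccl21b and Ccl21c, the other ligands of Ccr7, were not called in any comparison. Ccl21a had medians of 5.61 FPKM in controls and 4.15 FPKM in IRI kidneys on day 1 after 40 minutes (-0.28 ± 0.52, adjusted p = 0.67), and reads cannot be divided with certainty among the 3 copies.

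Ccl28, a mucosal ligand of Ccr10 and Ccr3, fell on day 1 after 40 minutes, from 1.35, 3.04 and 4.93 FPKM to 0.30, 0.356 and 1.49 FPKM (-2.39 ± 0.44, adjusted p = 0.000437), with overlap through the highest IRI kidney alone, replicate 6. On day 3 it held 0.827, 1.84 and 3.18 FPKM against 1.53, 2.74 and 3.07 FPKM (-0.53 ± 0.30, adjusted p = 0.15). Among 40-minute IRI kidneys it was thus higher on day 3 than on day 1 (1.79 ± 0.44, adjusted p = 0.0157). Markers of the thick limb and distal nephron had summed medians of 1206 FPKM in controls and 927 FPKM in IRI kidneys on day 1 after 40 minutes and 1310.2 and 839.5 FPKM on day 3. Proximal tubule markers had 3566 and 1025 FPKM, and 3659 and 1399.8 FPKM. Their part in the fall of Ccl28 was not tested.

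Of the interferon-induced ligands of Cxcr3, the receptor of activated T and NK cells, Cxcl9 fell on day 1 after 40 minutes, from 0.255, 0.470 and 0.841 FPKM to 0, 0.0445 and 0.150 FPKM, without overlap (-3.41 ± 0.76, adjusted p = 0.00181). On day 3 it held 0.0282, 0.175 and 1.44 FPKM against 0.230, 0.375 and 0.488 FPKM (-1.02 ± 0.72, adjusted p = 0.24). Cxcl10 was not called in any comparison. Its medians were 3.99 FPKM against 3.15 FPKM on day 1 and 3.25 FPKM against 2.55 FPKM on day 3 after 40 minutes, and its highest level, 35.7 FPKM, was that of replicate 4 of the 20-minute IRI kidneys of day 3. T and NK cell markers, of which 7 of 10 had a value, had a summed median of 1.70 FPKM in controls and 0.556 FPKM in IRI kidneys on day 1 after 40 minutes (0.746 to 3.46 and 0.476 to 4.16). Of the 7, 1 was called higher and 2 lower, where 15.7% of all genes rose and 7.39% fell. On day 3 the medians were 1.18 and 2.93 FPKM (0.555 to 1.72 and 1.06 to 10.1). There 2 were called higher and none lower, where 15.3% of all genes rose and 5.98% fell. The part of these markers in the Cxcl9 and Cxcr6 differences was not tested.

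Ccl20, the ligand of Ccr6, was listed at 0 in all 6 controls of 3 groups and held 0, 0.152 and 0.416 FPKM in the 40-minute controls of day 3. It reached 3.94 FPKM on day 1 and 13.2 FPKM on day 3 after 20 minutes, with 4 and 3 of 6 IRI kidneys above 0, and 0.832 and 2.11 FPKM after 40 minutes, with 3 and 5 above 0. The spread within each IRI group ran from 0 to these values, and Ccl20 was not called (adjusted p = 0.060, 0.17, 0.10 and 0.17 for 20 minutes on days 1 and 3 and 40 minutes on days 1 and 3). It passed without mouse 5 (0.0315) or 6 (0.0230) on day 1 after 20 minutes and without mouse 4 (0.0353) on day 3 after 40 minutes. Ccl11, the eosinophil ligand of Ccr3, was called on day 1 after 40 minutes at a low level, 0.112, 0.421 and 0.909 FPKM against 0, 0.0414 and 0.115 FPKM (3.50 ± 0.85, adjusted p = 0.00316). Ccl25, a thymic and gut ligand of Ccr9, lay below all controls on day 3 after 20 minutes (1.81, 2.40 and 2.94 against 2.99, 4.03 and 5.61 FPKM) with a difference of -0.76 ± 0.17 (adjusted p = 0.0093), under a fold of 2. Ccl27a stayed between 3.10 and 9.39 FPKM in all libraries.

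**Figure D4:**
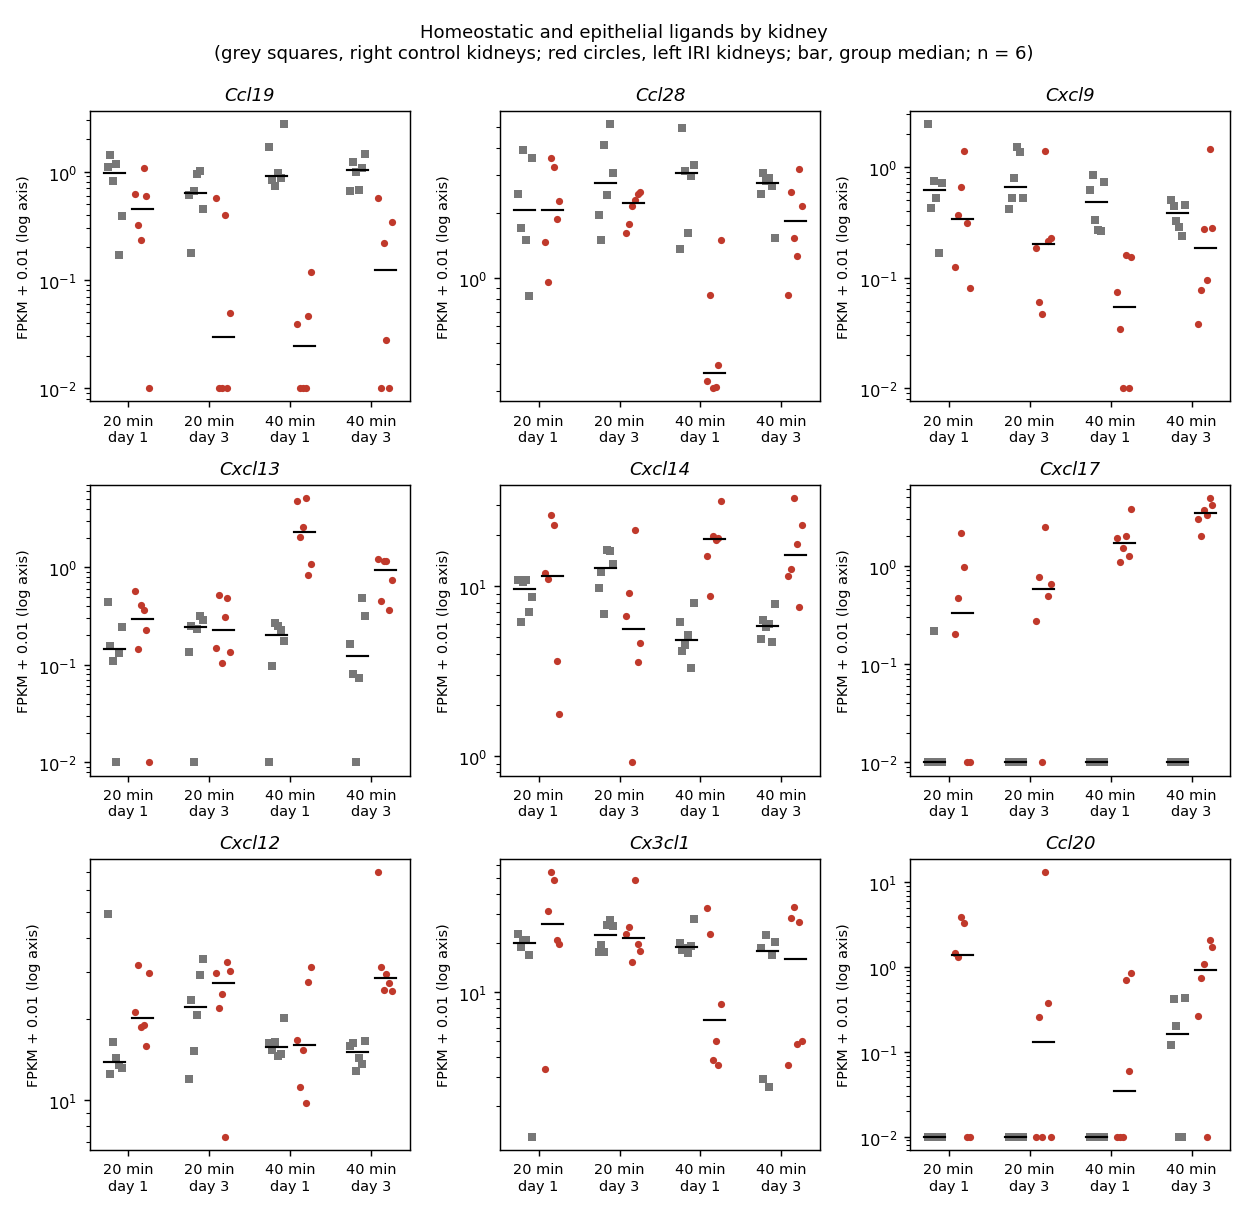
FPKM + 0.01 on a log axis of 9 homeostatic, epithelial and irregular ligands in every kidney, by ischemia time and day. Grey squares are right control kidneys, red circles left IRI kidneys and bars group medians (n = 6). Ccl19 lies below its controls after 40 minutes on both days, Ccl28 and Cxcl9 have their lowest medians after 40 minutes on day 1, Cxcl17 is listed at 0 (drawn at 0.01) in nearly all controls, and Cx3cl1 splits into a high and a low range within groups.

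The 20-minute and 40-minute IRI kidneys were then compared directly. On day 1, 7 of the 43 genes were higher after 40 minutes (7.82% of all genes were) and 5 were lower (5.88%). The 7 were Ccl6, Ccl9, Ccr1, Cxcl3, Cxcl13, Cxcl17 and Cxcr2, and the 5 were Ccl19, Ccl28, Cxcl9, Cxcr3 and Xcl1. Only for Ccr1 and Cxcl13 did the groups not overlap, both with 40 minutes higher (10.5% of all genes were so placed), with log2 differences of 3.04 ± 0.67 (adjusted p = 0.00358) and 3.66 ± 0.88 (adjusted p = 0.00603). On day 3, 13 genes were higher (9.82% of all genes) and none lower (2.32%), also at an unadjusted p under 0.05. The 13 were Ccl2, Ccl6, Ccl7, Ccl8, Ccl9, Ccl17, Ccr1, Ccr2, Cxcl1, Cxcl2, Cxcl13, Cxcl16 and Cxcl17, and Ccl6 (3.37 ± 0.22, adjusted p = 6.16e-06), Ccl9 (3.56 ± 0.30, adjusted p = 2.59e-05), Ccr1 (4.43 ± 0.62, adjusted p = 0.000311) and Ccl17 (2.90 ± 0.92, adjusted p = 0.0305) did not overlap, with 40 minutes higher (so for 11% of all genes, 1574 of 14284). Leaving out single kidneys ended the day 1 calls of Cxcl17 in 9 settings, Xcl1 in 8, Ccl19 in 7, Ccl6 in 4, Cxcl9 in 3 and Cxcl3 in 2 (adjusted p up to 0.0860), and the day 3 calls of Ccl8 in 9, Ccl17 in 4 and Cxcl16 in 3 (up to 0.0816). Of the lower genes of day 1, the lymphoid chemoattractant Xcl1 was listed at 0 in 5 of 6 40-minute IRI kidneys and held a median of 0.172 FPKM in 20-minute ones. Cxcr3 had medians of 0.0427 and 0.402 FPKM after 40 and 20 minutes (-2.96 ± 0.84, adjusted p = 0.0142).

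The change against the own controls differed between 40 and 20 minutes for 6 of the 43 genes on day 1 and 10 on day 3 (adjusted p under 0.05, with no fold limit), and for 29.8% and 29.4% of all genes. On day 1 the change was higher after 40 minutes for Ccl6, Cxcl13, Cxcl14 and Cxcl17 (18.5% of all genes) and lower for Ccl19 and Ccl28 (11.3%). On day 3 it was higher for Ccl2, Ccl6, Ccl7, Ccl9, Ccr1, Ccr2, Cxcl1, Cxcl2, Cxcl14 and Cxcl17 (20.4%) and lower for none (8.99%), with Cxcr4 alone lower at an unadjusted p under 0.05. The sizes on day 3 ran from 2.14 (Ccr2) to 8.05 (Ccl7), and among them were Ccl6 (3.71 ± 0.31, adjusted p = 5.73e-08), Ccl9 (3.33 ± 0.44, adjusted p = 1.07e-05) and Ccr1 (4.54 ± 0.87, adjusted p = 0.000496). On day 1 the members' shares, 9.30% and 4.65%, were below those of all genes. With the libraries scaled to an equal median the day 1 count was 2 higher and 3 lower, and the day 3 count 10 higher and 1 lower. The mouse as a block took Ccl6 (adjusted p = 0.0514) and Cxcl13 (0.0845) out of the day 1 calls and added Ccl4 and Ccr1 (0.0333 and 0.0458), and on day 3 the genes it added included Ccl5 and Ccl12 (0.0321 and 0.0282). With the highest transcript in place of the sum, Cxcl14 passed on neither day (adjusted p = 0.205 and 0.104). Leaving out single mice ended the day 1 calls of Ccl6 and Cxcl13 in 8 settings each and of Cxcl14 and Cxcl17 in 9 each (adjusted p up to 0.129), and on day 3 that of Cxcl17 in 5 (up to 0.0530).

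**Figure D5:**
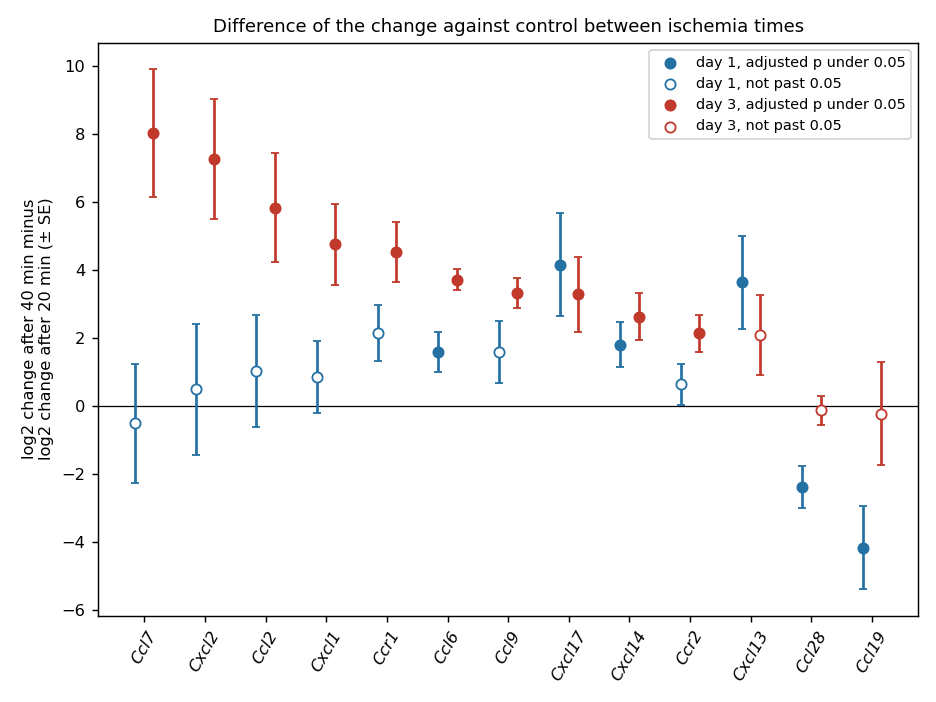
Difference between the log2 change against control after 40 minutes and that after 20 minutes (vertical axis, with its standard error) for the 13 genes called on either day. Blue is day 1, red is day 3, and filled symbols passed an adjusted p under 0.05. On day 3 the filled symbols run from 2.14 (Ccr2) to 8.05 (Ccl7), and on day 1 Ccl19 and Ccl28 lie below 0.

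Between days, none of the 43 genes differed in 20-minute IRI kidneys and no gene in the whole table did (0.0%), with 1 member higher on day 3 and 3 lower at an unadjusted p under 0.05. In 40-minute IRI kidneys Ccl6 and Ccl28 were higher on day 3 (3.31% of all genes) and Cxcl13 and Cxcr2 lower (1.63%), 4 calls in all where 4.94% of all genes were called. The Ccl6 call (1.36 ± 0.44, adjusted p = 0.0428) was lost in 10 leave-outs of a single kidney and that of Cxcl13 in 7, with adjusted p up to 0.0903 and 0.0841. The change against control was higher on day 3 than on day 1 after 40 minutes for Ccl5, Ccl6, Ccl28, Cxcl2 and Cxcl12 (5.69% of all genes) and lower for none (8.20%, with Ackr3 alone lower at an unadjusted p under 0.05). Leaving out single mice ended the call of Cxcl12 in 9 settings (adjusted p up to 0.103), of Ccl6 in 6, of Ccl28 in 5 and of Cxcl2 in 4 (up to 0.0749). For Cxcl2 this difference of 4.62 ± 1.28 (adjusted p = 0.0215) went with its controls: the IRI medians were 2.38 and 2.94 FPKM on days 1 and 3, and the control medians 0.828 and 0 FPKM. After 20 minutes the change differed between the days for none (0.042% of all genes in each direction), with 1 member higher and 3 lower at an unadjusted p under 0.05.

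The control kidneys of the 40-minute mice differed from those of the 20-minute mice in none of 41 genes tested on day 1 (0.226% of all genes were higher and 0.226% lower), with 5 higher and 1 lower at an unadjusted p under 0.05. The 5 were Ccl3, Ccl7, Cxcl2, Cxcr2 and Cxcr4. On day 3, Cxcr4 was higher (0.495% of all genes; 1.03 ± 0.26, adjusted p = 0.0316) and Cxcl14 lower (0.424%; -1.03 ± 0.20, adjusted p = 0.0105), both just past the fold of 2. The Cxcr4 call fell under the fold of 2 or above 0.05 when any of 7 single kidneys was left out and the Cxcl14 call when any of 5 was, with differences of 0.88 to 1.05 and of -1.0 to -0.94.

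Within control and IRI groups alike, many members were highest in the same kidney. Among the 20-minute controls, replicate 1 held the highest value of 18 of 41 genes above 0 on day 1, and replicate 4 of 14 of 39 on day 3. Among the 40-minute controls, replicate 6 held that of 15 of 40 on day 1 and replicate 3 of 16 of 40 on day 3. The IRI groups follow. Replicate 3 held the highest value of 27 of 43 genes among the 20-minute IRI kidneys of day 1, and replicate 4 that of 28 among those of day 3. Replicate 6 held 25 after 40 minutes on day 1 and replicate 5 held 20 on day 3. The injured tubule markers Havcr1, Lcn2, Sox9, Vcam1 and Krt20 had their highest sum in the same 20-minute kidneys, 870.0 FPKM (group median 118) and 1155 FPKM (group median 57.8), as did the monocyte and macrophage markers (243 and 140.4 FPKM). Neutrophil, dendritic cell, T and NK cell, endothelium and adrenal cortex sums were highest there too. B cell and urothelium sums were so on day 1 only, and podocyte sums on day 3 only. Proximal tubule, distal nephron and blood sums were so on neither day. How often these kidneys were highest over all genes was not counted. After 40 minutes on day 1, replicate 6 also held the highest macrophage marker sum, 654 FPKM, and T and NK cell sum, 4.16 FPKM, but the injured tubule sum was highest in replicate 5 and the neutrophil sum in replicate 4. On day 3 after 40 minutes replicate 5 held the highest neutrophil and T and NK cell sums, and replicate 6 the highest macrophage and injured tubule sums. The part of these kidneys' cell content in the levels was not tested.

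Other genes of the pathway were read from 3 lists and are set beside all genes. After 40 minutes 15.7% of all genes rose and 7.39% fell on day 1, and 15.3% rose and 5.98% fell on day 3. The median log2 differences of all genes were 0.24 and 0.16. Of 15 genes that carry signals from chemokine receptors, 7 rose on day 1 and 10 on day 3, and none fell, with medians of 1.07 and 1.63 on the log2 scale. Among them Rac2, the leukocyte Rac GTPase, rose by 1.14 and 2.44 (adjusted p = 0.00582 and 1.15e-07), and Vav1, its exchange factor, by 1.72 and 2.91 (adjusted p = 0.000672 and 2.61e-06). Of 18 inducers of chemokine transcription with a value, 6 rose and 1 fell on day 1 and 9 rose on day 3 (medians 0.83 and 1.06). Il6 was listed at 0 in all 6 controls of day 1 and in 5 of 6 of day 3, and held 0.251, 1.04 and 1.54 FPKM in the IRI kidneys of day 1 and 0, 0.286 and 1.62 FPKM in those of day 3. It was called on both days, and its p-values depend on the 0.01 added. Nfkb2, a subunit of the noncanonical NF-kB pathway, rose by 1.21 and 1.10 (adjusted p = 1.96e-06 and 1.95e-05). Il1b fell on day 1 (-1.25, adjusted p = 0.0488). Of 12 other chemoattractants and their receptors, 7 rose and 1 fell on day 1 and 8 rose on day 3 (medians 1.16 and 1.25). The complement receptor C3ar1 rose by 2.75 and 4.26 (adjusted p = 9.98e-05 and 5.09e-08), and Pf4, a platelet chemokine outside the name pattern that macrophages also make, by 4.10 and 4.60 (adjusted p = 5.48e-06 and 2.97e-07). After 20 minutes on day 1, none of the signaling genes, 1 inducer and 1 other chemoattractant gene rose, where 1.19% of all genes did. On day 3 none of the 3 lists had a call, where 2.34% of all genes rose and 1.73% fell.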

How the data were processed

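RNA of renal cortex was sequenced from 48 kidneys of 24 mice. The authors enriched mRNA, built libraries with a Kapa kit, checked reads with FastQC 0.11.7 and used HISAT2 2.1.0 to align to GRCm38, and the deposited values are transcript FPKM made with Ballgown, after removal of low transcripts. The annotation release and the strand setting are not given in the sources used here. Of the 33953 deposited transcripts, 33871 matched GENCODE M21 and were summed per gene symbol. Genes whose mean over the kidneys of a comparison reached 0.01 FPKM were tested with limma 3.58.1 in R 4.3.3 on log2(FPKM + 0.01), with Benjamini-Hochberg adjustment over all genes. A call needed adjusted p below 0.05 with a fitted fold of 2 or more, or the adjusted p alone for differences of fold changes.

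The 14 comparisons were fitted without the mouse as a block. As an alternative, the comparisons of IRI with control kidneys and the differences of fold changes were fitted with it. The other comparisons are between different mice and have no such fit. A shared replicate number marks the 2 kidneys of a mouse. The median correlation of their deviations from the group means ran from -0.018 to 0.059, and a kidney's own control was its closest in 1 to 3 of 6 mice. For the 22 members tested, 65 called results were checked with a two-sided exact permutation test (highest p = 0.0303, and 0.00216 is the smallest it can give). The scripts were tested on simulated data. Alternatives were 2 other pseudocounts, 2 other filters, scaling to an equal median, the highest transcript, no fold limit and leaving out kidneys. Members described in full were those called against control whose mean reached 1 FPKM in any group. Others were added where a gene of a named pair was called or stood out, after their values were seen. The gene family, the members described in full and the marker and pathway lists were chosen with earlier results of these data known, whereas membership follows from the symbol. A single member enters the counts but is not reported here.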

Additional observations from a re-analysis of the deposited data

Results flagged for a closer look

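In 29 of 168 groups of 6 kidneys, over 21 genes, the highest or lowest kidney lay further from the others than Dixon's critical value allows on the scale of log2(FPKM + 0.01). Chance gives about 1 in 20 groups, but 16 of the 29 were set by kidneys at 0 and are no measure of a spread: a lone 0 stands apart through the 0.01 added, and 5 kidneys at 0 leave the other apart whatever its level. The remaining 13 have no kidney at 0. In 10 of the 29 a kidney was listed at 0 while the other 5 were above 0. For Ccl17 this was so in the 20-minute IRI kidneys of day 1 (replicate 5) and 20-minute IRI kidneys of day 3 (replicate 1). For Ccl19 this was so in the 20-minute IRI kidneys of day 1 (replicate 6). For Ccl2 this was so in the 20-minute controls of day 1 (replicate 6). For Ccl7 this was so in the 40-minute controls of day 1 (replicate 5). For Cxcl13 this was so in the 20-minute controls of day 1 (replicate 4), 20-minute IRI kidneys of day 1 (replicate 6), 20-minute controls of day 3 (replicate 3) and 40-minute controls of day 1 (replicate 1). For Cxcr2 this was so in the 40-minute controls of day 3 (replicate 4). In 6 the lone kidney was above 0 and the other 5 were listed at 0. Ccl17 held 0.292 FPKM in replicate 2 of the 40-minute controls of day 1. Ccl7 held 0.192 FPKM in replicate 5 of the 20-minute controls of day 1. Ccl8 held 0.136 FPKM in replicate 2 of the 20-minute controls of day 3. Ccl8 held 0.471 FPKM in replicate 6 of the 40-minute controls of day 1. Ccl8 held 0.164 FPKM in replicate 5 of the 40-minute controls of day 3. Cxcl17 held 0.208 FPKM in replicate 3 of the 20-minute controls of day 1.

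In the other 13 a kidney stood apart at a level above 0. Replicate 5 of the 40-minute controls of day 1 held 0.185 FPKM of Ccl2, beside 1.08 to 2.20 FPKM in the other 5. Ccl2 stood at 1.99 FPKM in replicate 2 of the 40-minute IRI kidneys of day 1 and at 5.67 to 8.38 FPKM in the rest of the group. Replicate 6 of the 40-minute controls of day 3 held 1.53 FPKM of Ccl28, beside 2.45 to 3.07 FPKM in the other 5. Ccr1 stood at 4.08 FPKM in replicate 1 of the 40-minute IRI kidneys of day 3 and at 6.43 to 7.87 FPKM in the rest of the group. Replicate 1 of the 20-minute controls of day 1 held 2.17 FPKM of Ccr2, beside 0.929 to 1.21 FPKM in the other 5. Replicate 1 of the 20-minute controls of day 1 held 1.40 FPKM of Cx3cr1, beside 0.957 to 1.08 FPKM in the other 5. Cx3cr1 stood at 0.209 FPKM in replicate 6 of the 20-minute IRI kidneys of day 1 and at 1.34 to 2.81 FPKM in the rest of the group. Replicate 4 of the 20-minute IRI kidneys of day 3 held 38.4 FPKM of Cxcl1, beside 0.457 to 1.56 FPKM in the other 5. Cxcl12 stood at 48.8 FPKM in replicate 1 of the 20-minute controls of day 1 and at 12.5 to 16.4 FPKM in the rest of the group. Replicate 4 of the 20-minute IRI kidneys of day 3 held 7.33 FPKM of Cxcl12, beside 22.0 to 32.5 FPKM in the other 5. Cxcl12 stood at 20.1 FPKM in replicate 6 of the 40-minute controls of day 1 and at 14.6 to 16.4 FPKM in the rest of the group. Replicate 1 of the 40-minute IRI kidneys of day 3 held 70.0 FPKM of Cxcl12, beside 25.4 to 31.1 FPKM in the other 5. Cxcr4 stood at 4.72 FPKM in replicate 6 of the 40-minute controls of day 1 and at 2.59 to 2.91 FPKM in the rest of the group. The causes were not tested.

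The change against control differed between ischemia times or days for the following genes by limma's test of the difference itself (adjusted p under 0.05), on the log2 scale and with its standard error. Between 40 and 20 minutes on day 1 it differed for Ccl19 by -4.17 ± 1.24, Ccl28 by -2.38 ± 0.63, Ccl6 by 1.60 ± 0.60, Cxcl13 by 3.65 ± 1.37, Cxcl14 by 1.81 ± 0.67 and Cxcl17 by 4.16 ± 1.51. The same difference on day 3 was found for Ccl2 by 5.84 ± 1.61, Ccl6 by 3.71 ± 0.31, Ccl7 by 8.05 ± 1.88, Ccl9 by 3.33 ± 0.44, Ccr1 by 4.54 ± 0.87, Ccr2 by 2.14 ± 0.55, Cxcl1 by 4.76 ± 1.19, Cxcl14 by 2.62 ± 0.69, Cxcl17 by 3.28 ± 1.09 and Cxcl2 by 7.28 ± 1.78. Between day 3 and day 1 after 40 minutes it differed for Ccl28 by 1.86 ± 0.55, Ccl5 by 3.04 ± 0.70, Ccl6 by 1.81 ± 0.53, Cxcl12 by 1.05 ± 0.35 and Cxcl2 by 4.62 ± 1.28. Cxcl17 was listed at 0 in nearly all controls, and Ccl2, Ccl7, Ccl19, Cxcl2 and Cxcl13 in some kidneys of the groups compared. The sizes of these genes therefore depend on the 0.01 FPKM added.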

How the results depend on the processing

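No result changed direction. The number of members called on day 1 after 20 minutes, 1, was 0 with a pseudocount of 1 FPKM, with a filter at a mean of 0.5 FPKM, with the highest transcript or with the replicate block. On day 3 after 20 minutes it was 4, against 1 with a pseudocount of 1 and 2 with the 0.5 filter. Between 40-minute and 20-minute IRI kidneys on day 1 it was 12, against 6 and 7 with the same settings. Between days in 40-minute IRI kidneys it was 4, against 1 with a pseudocount of 1 and 2 with the highest transcript. Between controls on day 3 it was 2, against 0 with a pseudocount of 1, 1 with a pseudocount of 0.1 and 5 with no fold limit. The differences of fold changes numbered 6 between ischemia times on day 1, against 3 with the highest transcript, and 5 between days after 40 minutes, against 8 with a pseudocount of 1 and 3 with the highest transcript. The causes were not tested.

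Leaving out 1 kidney or mouse gave 0 to 6 calls for 20 minutes on day 1, 3 to 6 on day 3, 17 to 21 for 40 minutes on day 1 and 19 to 22 on day 3. Between IRI groups it gave 7 to 14 on day 1, 10 to 15 on day 3, 0 to 1 between days after 20 minutes and 2 to 9 after 40 minutes, and between controls 0 to 1 on day 1 and 1 to 3 on day 3. Differences of fold changes gave 3 to 7 and 9 to 15 between ischemia times on days 1 and 3, and 0 to 2 and 1 to 10 between days after 20 and 40 minutes. Of the single-gene calls, a pseudocount of 1 FPKM ended 33 of 96, the highest transcript 16, equal medians 5, a pseudocount of 0.1 FPKM 2, the replicate block 4 of 65 and the 0.5 filter 1 of 81, and leaving out a kidney or mouse ended a call 168 times and kept it 720 times. The FPKM values do not carry counts, so the depth behind low levels is known only roughly.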
